A study of Homo sapiens with 15 samples.

Results

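A set of 37 genes of fatty acid and glycerolipid synthesis was followed in H1299 cells across 5 media. The genes were a listed set, matched by symbol to the Ensembl gene IDs of the counts table, and grouped by step: citrate export and acetyl-CoA supply, acyl synthesis, desaturation, elongation, activation and glycerolipid assembly. All 37 symbols were found among 58395 genes, and 36 passed the filter on low counts together with 16889 genes in all. The gene that did not pass was ACSL5, an acyl-CoA synthetase, which had at most 8 counts in a library. By GENCODE 29 on GRCh38, the genes that the results turn on most lie as follows: FASN (ENSG00000169710) at chr17:82078333-82098332, SCD (ENSG00000099194) at chr10:100347124-100364834, LPIN1 (ENSG00000134324) at chr2:11677595-11827409 and MID1IP1 (ENSG00000165175) at chrX:38801432-38806537. H1299 is an established cell line from a human non-small cell carcinoma of the lung, with lymph node as its labelled tissue. The cells were grown with serum, washed, and moved to serum-free RPMI 1640 for 12 h, so every group was without serum. There were 3 libraries of poly(A) RNA in each group, 15 in all. The groups were 5 mM glucose with 4 mM glutamine, 5 mM glucose with 4 mM NH4Cl and no glutamine, 4 mM glutamine without glucose, 5 mM glucose without glutamine, and neither glucose nor glutamine. NH4Cl supplies ammonium, the nitrogen that glutamine gives up when glutaminase acts on it. The labels give no day or batch for the triplicate cells, and p-values therefore speak of the spread among these libraries alone, which may be technical.

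Cells make fatty acids from citrate that leaves the mitochondrion and is split to acetyl-CoA in the cytosol. Acetyl-CoA carboxylase turns acetyl-CoA into malonyl-CoA, and fatty acid synthase joins these units into palmitate with reducing power from NADPH. Desaturases and elongases then shape the chain, acyl-CoA synthetases activate it, and a series of acyltransferases and phosphatases builds it into phospholipids and triacylglycerol. Many of the enzymes are known targets of the SREBP transcription factors, and tumour lines often make much of their own fat.

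Library totals ran from 14914127 to 19938691 counts, and a floor of 3 counts lay between 0.150 and 0.236 CPM. Levels are given in CPM, a gene's count relative to its library total after TMM scaling, a correction for RNA composition. TMM factors were 0.793 in the libraries with neither nutrient and 1.006 to 1.086 in the other 12. When library totals alone set the scale, the median over all genes shifted by 0.436 (log2) for glucose alone against neither, by 0.343 for glutamine alone against neither and by 0.443 for both nutrients against neither, so directions against that medium depend on the scaling. Among comparisons of media with glucose the median shifted by at most 0.00990, and for glucose added to glutamine it shifted by 0.0995. In bulk RNA a change per cell and a change in the share of some cells cannot be told apart. The mesenchymal marker VIM was high, at 1810 to 2680 CPM. Epithelial markers were split: KRT8, at 154 to 577 CPM, and KRT18, at 288 to 678 CPM, were high. KRT19, EPCAM and CDH1 had at most 26, 16 and 6 counts. The lung markers NKX2-1, SFTPB and SFTPC had at most 7, 4 and 2 counts, the leukocyte gene PTPRC at most 12, the adipocyte gene ADIPOQ at most 3 and the liver gene ALB at most 9. Replicate 1 of glucose, replicate 3 of glucose with glutamine and replicate 2 of neither held the most genes among those too low to be tested, 18227, 16832 and 11547 of them against 7436 to 10010 in the other 12, and counts of members without them are given beside each comparison. Of the pseudogenes that resemble members, AACSP1 had at most 183 counts in a library, SCDP1 at most 92 and TECRP1 at most 66. Their parents AACS, SCD and TECR had 502 to 1031, 10500 to 74950 and 957 to 2256 counts, so AACSP1 was not small beside AACS. The sources used here do not give the treatment of multimapping reads.

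Summed over its members, the set was highest with both nutrients and lowest with glucose alone. Summed over the 37 genes, CPM was 9306, 9232 and 9100 in the 3 libraries of glucose with glutamine, 7195, 7227 and 7158 with NH4Cl, 3608, 3658 and 3625 in glutamine alone, 2696, 2701 and 2729 in glucose alone, and 4389, 4340 and 4351 with neither. The 5 media did not overlap in this sum. With library totals alone both ends of the order stayed, but neither, at 3444 to 3479, then stood below glutamine alone, at 3631 to 3680. FASN and SCD made up 65.7 to 65.9% of it with both nutrients, 63.1 to 63.4% with NH4Cl, 41.1 to 41.6% in glutamine alone, 29.2 to 29.4% in glucose alone and 39.7 to 39.8% with neither. Of the 36 genes tested, 18 (50%) had their highest mean with both nutrients, against 18.5% of all genes tested. Likewise 18 (50%) had their lowest mean in glucose alone, against 18.4% of all genes tested. With library totals alone the first count was 22, against 28.9% of all genes, and the second 11, against 12.9%. The medium with neither nutrient then held the largest number of lowest means, 15 of 36, against 56% of all genes. In 13 genes all 3 libraries with both nutrients lay above the other 12, as they did in 8.94% of all genes. In 14 genes all 3 libraries of glucose alone lay below the other 12, as they did in 6.11% of all genes. With library totals these were 16 genes, against 16%, and 10 genes, against 4.34%. Per exon length, averaged over the 5 media, the most abundant member was SCD at 394 RPKM, followed by FASN at 87.3, ELOVL5 at 77.8 and SLC25A1 at 60.2 RPKM, and the least abundant tested member was PNPLA3 at 0.946 RPKM.

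**Figure D1:**
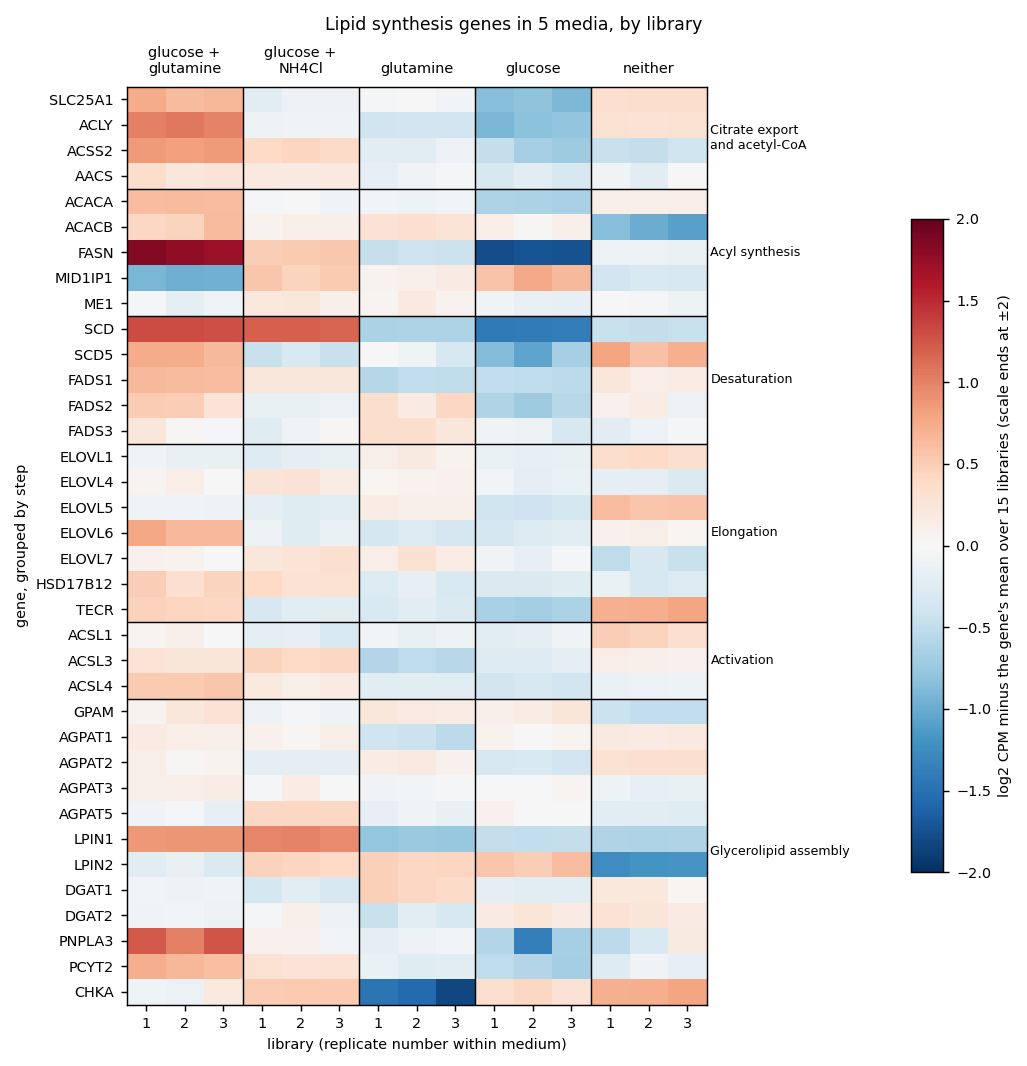
Heat map of the 36 tested genes (down, grouped by step) in the 15 libraries (across, grouped by medium), coloured by log2 CPM minus the gene's mean over all libraries. The 3 libraries of a medium look alike, and in 18 genes the mean is highest with both nutrients.

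Promoter sequence was read from RefSeq windows of GRCh38.p14 that run from 250 bases before to 50 after a gene's start, and 30 of the 37 genes had one. No window was at hand for CHKA, PNPLA3, FASN, DGAT2, DGAT1, AGPAT5 or HSD17B12. The 4 below are shown because their genes carry the contrasts described here: SLC25A1, ACLY and SCD were highest with both nutrients, and MID1IP1 was lowest there. Capitals mark CCAAT boxes (CCAAT, or ATTGG where the box is on the other strand) and, in MID1IP1, the core of a sterol regulatory element on the other strand, and each sequence is written 5′ to 3′ on the strand of its gene.
SLC25A1 promoter, chr22:19178687-19178986, minus strand: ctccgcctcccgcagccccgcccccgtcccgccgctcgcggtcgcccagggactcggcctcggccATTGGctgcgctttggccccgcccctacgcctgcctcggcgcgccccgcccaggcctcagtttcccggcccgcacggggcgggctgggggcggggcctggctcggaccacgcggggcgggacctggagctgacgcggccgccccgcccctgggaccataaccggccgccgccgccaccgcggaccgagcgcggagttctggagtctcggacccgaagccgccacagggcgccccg
ACLY promoter, chr17:41918973-41919272, minus strand: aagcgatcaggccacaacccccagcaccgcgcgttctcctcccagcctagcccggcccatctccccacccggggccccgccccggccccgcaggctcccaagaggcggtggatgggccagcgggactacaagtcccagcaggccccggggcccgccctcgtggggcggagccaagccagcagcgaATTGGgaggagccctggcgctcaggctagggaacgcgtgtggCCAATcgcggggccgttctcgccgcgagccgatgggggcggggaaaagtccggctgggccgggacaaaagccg
SCD promoter, chr10:100346983-100347282, plus strand: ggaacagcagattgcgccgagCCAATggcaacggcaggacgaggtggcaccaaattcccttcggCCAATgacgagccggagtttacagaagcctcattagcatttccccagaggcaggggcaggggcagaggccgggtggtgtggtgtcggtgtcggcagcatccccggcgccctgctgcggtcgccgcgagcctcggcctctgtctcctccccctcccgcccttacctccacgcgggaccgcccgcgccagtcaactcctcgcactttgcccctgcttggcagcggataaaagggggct
MID1IP1 promoter, chrX:38801209-38801508, plus strand: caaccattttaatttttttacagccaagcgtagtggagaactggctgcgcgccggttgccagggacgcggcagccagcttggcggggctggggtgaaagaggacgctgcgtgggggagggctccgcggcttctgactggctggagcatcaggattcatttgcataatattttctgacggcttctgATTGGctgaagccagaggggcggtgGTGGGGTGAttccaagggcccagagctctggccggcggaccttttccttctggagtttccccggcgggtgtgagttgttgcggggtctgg
Both strands were searched, and a gene counted if any of its windows held the letters. Of the 30 genes, 13 had several windows, and windows per gene were not counted for the other tested genes. The CCAAT box occurred in 20 of the 30 genes (66.7%), against 42.7% of the 11593 tested genes with a window. The GC box GGGCGG occurred in 27 (90%), against 76.3%. The sterol regulatory element core TCACNCCAC occurred in MID1IP1 and ACSL1 (6.67%), against 1.35%, and the E-box CACGTG in ELOVL4, ELOVL5 and LPIN2 (10%), against 12.5%. The amino acid response element TGATGNAA occurred in 0 of the 30, against 2.73%. A paired E-box, 2 copies of CACGTG with 5 bases of any kind between, and a direct repeat of AGGTCA with 4 bases between occurred in 0 of the 30 and in 0.00863% of tested genes each. These are matches of letters in short windows, not sites shown to be used.

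Adding glutamine to glucose raised most of the set. Of 36 genes, 26 rose and 5 fell at an adjusted p under 0.05 (edgeR quasi-likelihood test, Benjamini-Hochberg over all genes tested), while 34.2% of all genes rose and 33.7% fell. The median log2 change of the set was 0.45, and that of all genes was 0.00. By step, 4 of 4 genes of acetyl-CoA supply, 3 of 5 of acyl synthesis, 5 of 5 of desaturation, 5 of 7 of elongation, 3 of 3 of activation and 6 of 12 of glycerolipid assembly rose. Tested against a 1.2-fold change, 21 rose and 2 fell, against 22.6% and 21.3% of all genes. Called rises of at least 2-fold numbered 13, against 5.87% of all genes. MID1IP1 was the 1 member with a called fall of that size, against 6.31% of all genes. The other genes that fell were AGPAT5, LPIN2, DGAT2 and CHKA. Without the 3 libraries richest in low-count genes, 25 rose and 4 fell, and AGPAT5 no longer passed, with a log2 change of -0.05.

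NH4Cl added to glucose, with no glutamine, also raised most of the set. It raised 25 genes and lowered 4 (edgeR, adjusted p under 0.05), in a comparison where 12.7% of all genes rose and 16.9% fell. The median log2 change was 0.37 for the set and -0.01 for all genes. Tested against a 1.2-fold change, 17 of the 36 rose and 0 fell, against 1.35% and 1.28% of all genes, so those 17 were among 228 genes called higher. The 17 were SLC25A1, ACLY, ACSS2 and AACS of acetyl-CoA supply, ACACA and FASN, SCD, FADS1 and FADS2, HSD17B12 and TECR, ACSL3 and ACSL4, and AGPAT5, LPIN1, PNPLA3 and PCYT2. Changes of at least 2-fold were seen for ACSS2, FASN, SCD and LPIN1, all of them rises, against 0.385% of all genes with such a rise. The genes that fell did so by little: MID1IP1, GPAM, LPIN2 and DGAT2 had log2 changes of -0.15, -0.23, -0.12 and -0.19. Each lost its call when 1 glucose library was left out: MID1IP1 (-0.10) and DGAT2 (-0.16) without replicate 2, and GPAM (-0.19) and LPIN2 (-0.09) without replicate 3. DGAT2 also lost it without NH4Cl replicate 1 (-0.18) or 3 (-0.14). Without the 3 libraries richest in low-count genes, 23 rose and 4 fell.

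NH4Cl in place of glutamine, with glucose in both media, shows how the responses to glutamine and to NH4Cl differed. Of 36 genes, 9 were higher and 21 lower with NH4Cl than with glutamine (edgeR, adjusted p under 0.05), against 31.2% and 33.4% of all genes. The median log2 difference was -0.19 for the set and -0.01 for all genes. By more than 1.2-fold, 4 were higher, MID1IP1, AGPAT5, LPIN2 and CHKA, and 14 lower, against 18% and 20% of all genes. SCD and LPIN1 lay close in both media, with log2 differences of -0.12 ± 0.015 and 0.09 ± 0.025 (SE, n = 3 each). Both differences passed the edgeR test, at adjusted p of 7.36e-13 and 0.000468, and neither passed against 1.2-fold. FASN at -1.26 ± 0.018, ACLY at -1.11 ± 0.025 and SLC25A1 at -0.83 ± 0.030 were lower with NH4Cl. Both additions share the glucose libraries as their control, so their values are set side by side without a measure of likeness. With the 3 libraries richest in low-count genes left out, 7 were higher and 21 lower.

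**Figure D2:**
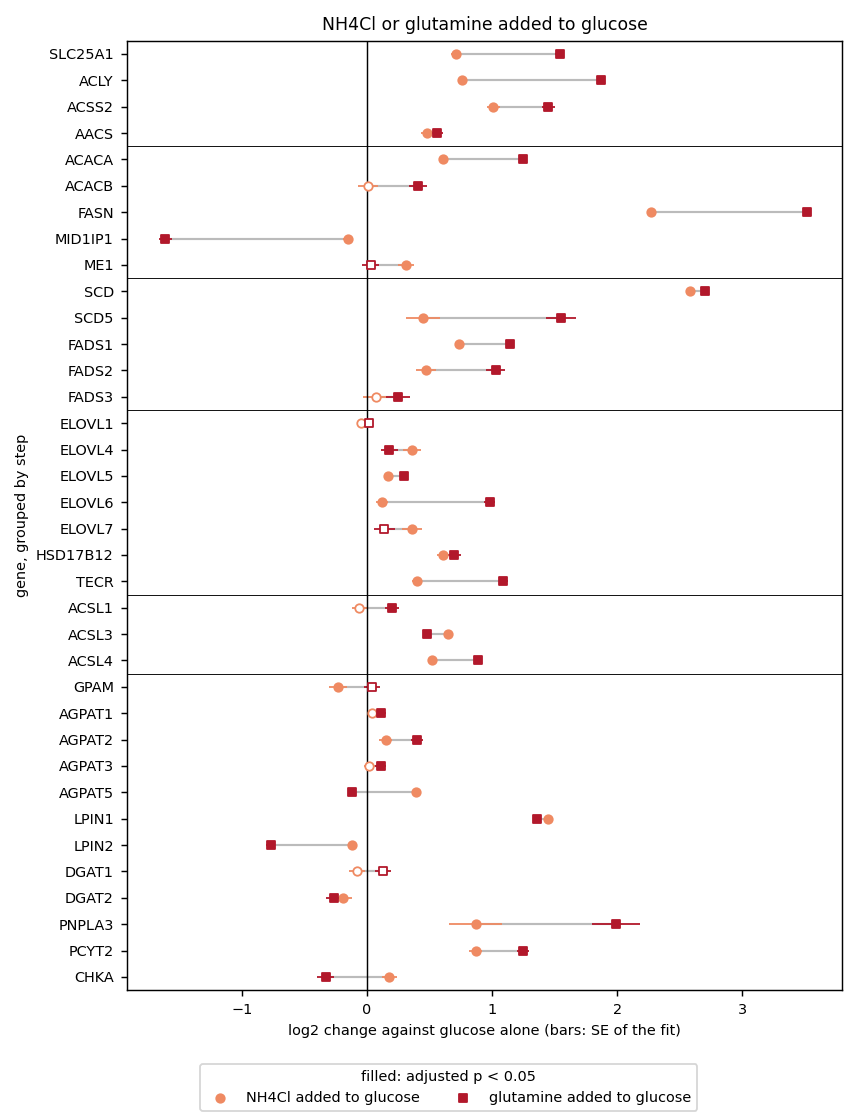
Log2 change of each of 36 genes (down, grouped by step) with glutamine and with NH4Cl added to glucose (across), with bars for the SE of the fit from 3 libraries per medium and filled points for an adjusted p under 0.05. SCD and LPIN1 changed by like amounts with both, at 2.70 and 2.58 and at 1.36 and 1.45, whereas FASN changed by 3.52 with glutamine and 2.27 with NH4Cl. Both changes share the glucose libraries.

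Glucose added to glutamine raised 23 genes and lowered 7 (edgeR, adjusted p under 0.05), against 32.6% and 33% of all genes. The median log2 change was 0.48 for the set and -0.01 for all genes. Beyond 1.2-fold, 19 rose and 3 fell, against 19.6% and 18.8%. The 3 that fell were MID1IP1, LPIN2 and DGAT1, and the largest rises were those of FASN at 2.21 ± 0.019, SCD at 1.92 ± 0.015, LPIN1 at 1.64 ± 0.029 and CHKA at 1.61 ± 0.091. Acetyl-CoA supply rose in 4 of 4 genes, acyl synthesis in 3 of 5 with the other 2 falling, desaturation in 3 of 5, elongation in 3 of 7, activation in 3 of 3 and glycerolipid assembly in 7 of 12. Among these ACACB, at 0.20, lost its call without replicate 3 of both nutrients (0.13), and the fall of ME1 by 0.21 lost it with library totals (-0.11). The fall of FADS3 also lost its call with library totals (-0.13), and without single libraries of either medium (-0.18 to -0.21). FADS2 gained a call with library totals (0.21). Leaving out the 3 libraries richest in low-count genes gave 23 and 6.

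Acetyl-CoA supply was the step in which every gene rose both with glutamine and with NH4Cl added to glucose. SLC25A1, the mitochondrial citrate carrier, had 198, 185 and 189 CPM with both nutrients, 103, 109 and 110 with NH4Cl, 116, 118 and 114 in glutamine alone, 66.0, 67.7 and 63.4 in glucose alone, and 150, 152 and 152 with neither. ACLY, which splits citrate to acetyl-CoA, had 453, 470 and 450 CPM with both, 209, 214 and 215 with NH4Cl, 170, 173 and 172 in glutamine alone, 119, 127 and 130 in glucose alone, and 277, 276 and 278 with neither. In both genes the libraries with both nutrients were the highest of all and those of glucose alone the lowest, with no overlap. The medium with neither came second, but with library totals alone ACLY was higher with NH4Cl, at 227 to 232 CPM, than with neither, at 219 to 220, and SLC25A1 ranged from 111 to 119 with NH4Cl, 115 to 119 in glutamine alone and 119 to 121 with neither. Log2 changes with glutamine added to glucose were 1.54 ± 0.033 for SLC25A1 and 1.87 ± 0.026 for ACLY, with edgeR adjusted p of 1.64e-103 and 4.71e-134. Those with NH4Cl were 0.71 ± 0.035 and 0.76 ± 0.027. ACSS2, which makes acetyl-CoA from acetate, had 73.5, 71.9 and 73.1 CPM with both, 53.7, 54.6 and 53.1 with NH4Cl, 34.6, 34.8 and 37.4 in glutamine alone, 29.2, 25.7 and 24.9 in glucose alone, and 29.8, 29.2 and 31.0 with neither. Unlike the citrate genes it was low with neither nutrient, and the NH4Cl libraries stood closest to those with both. Its log2 change was 1.45 ± 0.050 with glutamine and 1.01 ± 0.052 with NH4Cl. AACS, acetoacetyl-CoA synthetase, averaged 55.0 ± 2.68 CPM with both, 51.9 ± 0.380 with NH4Cl, 42.8 ± 2.06 in glutamine alone, 37.3 ± 1.74 in glucose alone and 42.7 ± 3.13 with neither (SD, n = 3 each). Its difference between NH4Cl and glutamine, -0.09 ± 0.045, did not pass (edgeR adjusted p = 0.083) but did without replicate 2 of both nutrients (-0.11).

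With glutamine added to glucose, the fatty acid synthase gene had the largest log2 change of the set, while with NH4Cl it came after SCD. FASN, whose product builds palmitate, had 2130, 2050 and 1990 CPM with both nutrients, 845, 861 and 872 with NH4Cl, 437, 450 and 445 in glutamine alone, 175, 181 and 180 in glucose alone, and 550, 555 and 546 with neither. The 5 media did not overlap, and the order was both, NH4Cl, neither, glutamine, glucose. Under library totals, neither, at 434 to 440 CPM, and glutamine alone, at 440 to 453, met at their edges. The mean of glutamine alone was then the higher. Glutamine added to glucose gave a log2 change of 3.52 ± 0.020 (edgeR adjusted p = 7.84e-196) and NH4Cl one of 2.27 ± 0.021 (adjusted p = 3.14e-162). ACACA, the main cytosolic acetyl-CoA carboxylase, had 179, 180 and 178 CPM with both, 114, 117 and 111 with NH4Cl, 112, 109 and 112 in glutamine alone, 75.7, 74.8 and 74.5 in glucose alone, and 126, 126 and 128 with neither. Libraries with both nutrients were the highest, those of glucose alone the lowest, and NH4Cl and glutamine alone overlapped in between. Libraries with neither came second, but with library totals they lay below glutamine alone, whose log2 difference from neither was then 0.15. ACACB, the carboxylase isoform at the mitochondrial surface, had 19.2, 19.6 and 22.3 CPM with both, 15.2, 15.6 and 15.5 with NH4Cl, 17.7, 18.2 and 17.5 in glutamine alone, 15.8, 14.7 and 15.5 in glucose alone, and 7.98, 7.27 and 6.78 with neither. Here the medium with neither nutrient stood below all others, and NH4Cl and glucose alone overlapped. Per exon length, averaged over the media, ACACA stood at 9.31 RPKM and ACACB at 1.05 RPKM.

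MID1IP1, whose product promotes polymerization of acetyl-CoA carboxylase, ran the other way from FASN and ACACA. It had 25.1, 23.9 and 24.2 CPM with both nutrients, 69.5, 64.2 and 68.2 with NH4Cl, 49.5, 50.8 and 52.7 in glutamine alone, 70.3, 80.2 and 73.6 in glucose alone, and 36.3, 38.4 and 38.0 with neither. All libraries with both nutrients lay below the other 12, and those of glucose alone were the highest. Its log2 change was -1.61 ± 0.050 with glutamine added to glucose (edgeR adjusted p = 2.3e-78) and -0.15 ± 0.040 with NH4Cl, and it was higher with NH4Cl than with glutamine by 1.46 ± 0.051. ME1, cytosolic malic enzyme, which makes NADPH, averaged 21.5 ± 0.964 CPM with both, 26.1 ± 1.21 with NH4Cl, 24.8 ± 1.27 in glutamine alone, 21.1 ± 0.647 in glucose alone and 22.3 ± 0.659 with neither (SD, n = 3 each). ME1 rose with NH4Cl by 0.31 ± 0.065 and had a log2 change of 0.03 ± 0.066 with glutamine, which did not pass.

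**Figure D3:**
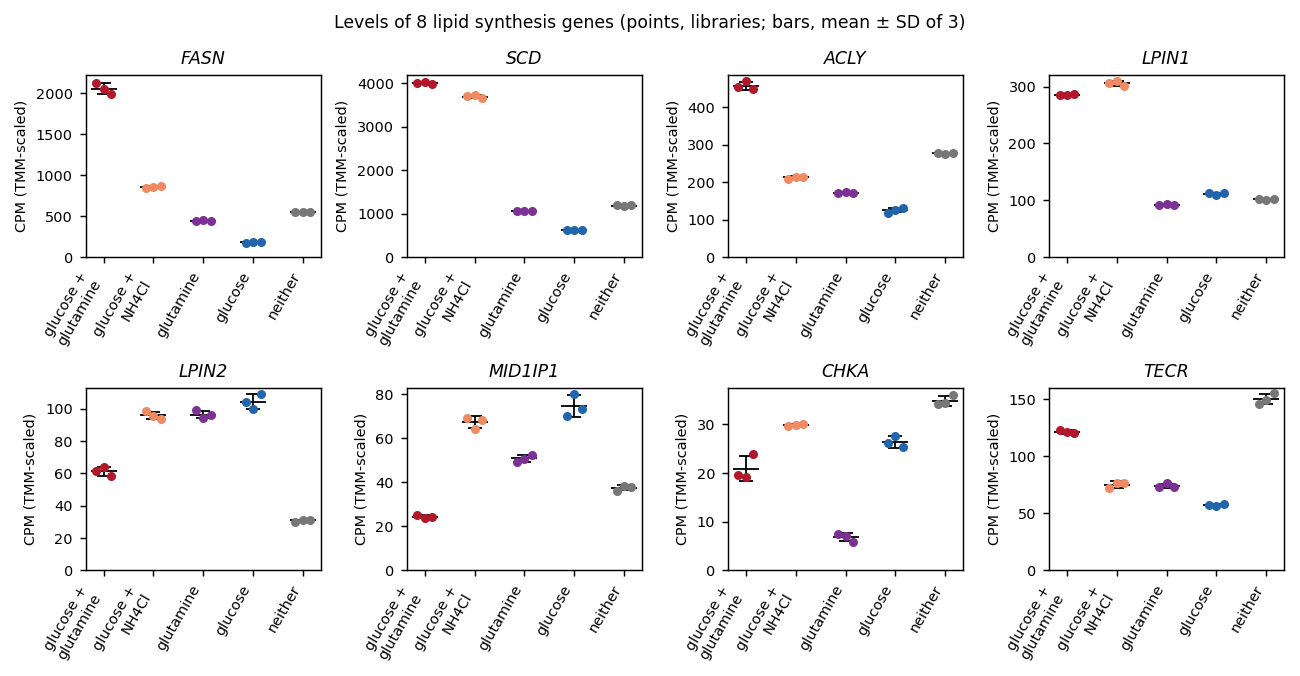
CPM of 8 genes (1 panel each) in the 5 media, with a point per library and bars at the mean ± SD of 3. FASN lies between 175 and 2130 CPM with the 5 media apart, and MID1IP1 is lowest with both nutrients, at 23.9 to 25.1 CPM.

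Desaturase genes rose with glutamine in 5 of 5 cases and with NH4Cl in 4 of 5. SCD, which makes oleate and palmitoleate, had 4000, 4030 and 3990 CPM with both nutrients, 3710, 3720 and 3650 with NH4Cl, 1050, 1060 and 1060 in glutamine alone, 612, 614 and 623 in glucose alone, and 1190, 1170 and 1190 with neither. The NH4Cl libraries came within a narrow margin of those with both, far above the other 9. Its log2 change was 2.70 ± 0.016 with glutamine (edgeR adjusted p = 1.22e-197) and 2.58 ± 0.016 with NH4Cl (adjusted p = 2.62e-194). The related desaturase SCD5 had 12.6, 12.6 and 11.8 CPM with both, 5.53, 6.09 and 5.54 with NH4Cl, 7.56, 7.08 and 6.02 in glutamine alone, 4.16, 3.63 and 4.78 in glucose alone, and 13.0, 11.3 and 12.3 with neither. SCD5 was high with both nutrients and with neither, and those libraries overlapped, whereas with library totals neither, at 8.93 to 10.3 CPM, lay below both, at 12.8 to 13.6. NH4Cl raised it by 0.45 ± 0.134, which did not pass without glucose replicate 2 (0.36, edgeR adjusted p = 0.0573), and its log2 difference between NH4Cl and glutamine was -1.11 ± 0.110. FADS1, the desaturase that forms arachidonate, had 248, 246 and 242 CPM with both, 186, 185 and 186 with NH4Cl, 107, 112 and 111 in glutamine alone, 113, 111 and 110 in glucose alone, and 185, 173 and 176 with neither. Glutamine alone and glucose alone overlapped at the low end. FADS2, which starts polyunsaturated fatty acid synthesis, had 27.5, 27.1 and 23.1 CPM with both, 17.4, 17.4 and 17.8 with NH4Cl, 24.8, 21.8 and 25.7 in glutamine alone, 12.8, 11.8 and 13.2 in glucose alone, and 20.6, 21.4 and 17.8 with neither. Unlike SCD it was nearly as high in glutamine alone as with both, with a log2 change of 0.11 ± 0.066 for glucose added to glutamine that did not pass (edgeR adjusted p = 0.145). FADS2 did pass there without replicate 3 of both nutrients (0.19) and with library totals alone (0.21). Its exons overlap those of FADS1 by 490 bases on the opposite strand, and the sources used here do not say whether counting used strand. FADS3 averaged 9.11 to 12.7 CPM over the media, and its log2 change of 0.25 ± 0.098 with glutamine did not pass without glucose replicate 3 (0.17) or without replicate 1 of both nutrients (0.17).

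Among 7 elongation genes, ELOVL6 and TECR had the largest changes with glutamine. ELOVL6, which extends palmitate to stearate, had 78.5, 72.0 and 72.6 CPM with both nutrients, 42.8, 39.1 and 41.9 with NH4Cl, 36.0, 38.0 and 36.6 in glutamine alone, 36.3, 38.0 and 39.3 in glucose alone, and 48.8, 50.1 and 47.3 with neither. It was highest with both nutrients, neither came second above the other 3 media, and NH4Cl and glucose alone overlapped. With library totals neither lay lower, at 37.6 to 39.8 CPM, and overlapped glucose alone and glutamine alone. Its log2 change was 0.98 ± 0.045 with glutamine added to glucose and 0.12 ± 0.050 with NH4Cl, the last at an edgeR adjusted p of 0.0494 that was lost without glucose replicate 1 (0.09) or 2 (0.13) and without NH4Cl replicate 1 (0.09) or 3 (0.11). TECR, the reductase of the last elongation step, had 123, 121 and 120 CPM with both, 72.0, 76.7 and 76.8 with NH4Cl, 72.7, 76.4 and 73.3 in glutamine alone, 57.2, 56.0 and 57.9 in glucose alone, and 146, 149 and 155 with neither. It was highest with neither nutrient, but with library totals the log2 difference of both nutrients from neither turned from -0.30 to 0.14. The overlapping opposite-strand gene DNAJB1, which covers 3.57% of TECR exon length, averaged 293 CPM with both, 160 with NH4Cl, 535 in glutamine alone, 154 in glucose alone and 8780 with neither, and its part in the TECR counts was not tested. HSD17B12, the reductase of the second elongation step, averaged 48.5 ± 2.71 CPM with both, 45.5 ± 1.90 with NH4Cl, 30.6 ± 1.62 in glutamine alone, 29.9 ± 0.533 in glucose alone and 30.6 ± 1.99 with neither (SD, n = 3 each). It was high in the 2 media that held glucose with glutamine or NH4Cl, and low in the other 3. ELOVL5, the elongase of polyunsaturated chains, averaged 272 CPM with both, 248 with NH4Cl, 311 in glutamine alone, 220 in glucose alone and 432 with neither, and rose by 0.30 ± 0.024 with glutamine added to glucose. ELOVL1, an elongase of very long saturated chains, averaged 121 CPM with both, 115 with NH4Cl, 144 in glutamine alone, 119 in glucose alone and 168 with neither, and its log2 change of 0.02 ± 0.031 with glutamine did not pass. ELOVL4 and ELOVL7 had means by medium between 10.1 and 22.7 CPM, with rises of 0.36 each with NH4Cl and log2 changes of 0.18 and 0.14 with glutamine, of which that of ELOVL7 did not pass and that of ELOVL4 was lost without replicate 2 of glucose (0.15) or of both nutrients (0.15).

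Acyl-CoA synthetase genes rose with glutamine in 3 of 3 tested cases. ACSL3, an enzyme of the endoplasmic reticulum and lipid droplets, had 234, 229 and 229 CPM with both nutrients, 264, 257 and 260 with NH4Cl, 129, 137 and 132 in glutamine alone, 163, 163 and 170 in glucose alone, and 214, 208 and 207 with neither. NH4Cl gave its highest libraries, above those with both nutrients, with log2 changes of 0.65 ± 0.027 with NH4Cl and 0.48 ± 0.027 with glutamine. ACSL4, which prefers arachidonate, had 152, 152 and 155 CPM with both, 121, 115 and 118 with NH4Cl, 90.7, 90.9 and 91.1 in glutamine alone, 81.8, 84.5 and 80.7 in glucose alone, and 95.9, 96.8 and 98.4 with neither. Its 5 media did not overlap, but with library totals neither, at 76.1 to 78.1 CPM, lay below glucose alone, at 86.1 to 90.3. The ACSL4 log2 change was 0.89 ± 0.031 with glutamine and 0.52 ± 0.033 with NH4Cl. ACSL1 averaged 31.0 CPM with both, 25.8 with NH4Cl, 28.0 in glutamine alone, 27.0 in glucose alone and 40.3 with neither, and its log2 change of -0.06 ± 0.060 with NH4Cl did not pass.

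In glycerolipid assembly 6 of 12 genes rose and 4 fell with glutamine added to glucose. LPIN1, a phosphatidate phosphatase that makes diacylglycerol, had 285, 286 and 287 CPM with both nutrients, 306, 310 and 301 with NH4Cl, 90.9, 92.6 and 92.2 in glutamine alone, 112, 110 and 112 in glucose alone, and 102, 101 and 102 with neither. It was high where glucose came with glutamine or NH4Cl and low in the other 9 libraries. Its log2 change was 1.36 ± 0.028 with glutamine and 1.45 ± 0.028 with NH4Cl. LPIN2, its paralog, had 61.5, 63.9 and 58.3 CPM with both, 98.3, 95.4 and 93.9 with NH4Cl, 99.0, 94.3 and 95.9 in glutamine alone, 104, 100 and 109 in glucose alone, and 30.2, 31.0 and 31.4 with neither. LPIN2 was lower with both nutrients than in the 3 media that held NH4Cl with glucose, glutamine or glucose, and lowest with neither. Its log2 change with glutamine added to glucose was -0.77 ± 0.036, while glutamine alone was higher than neither by 1.64 ± 0.047.

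Further along glycerolipid assembly, CHKA, choline kinase, had 19.6, 19.2 and 23.9 CPM with both nutrients, 29.7, 29.8 and 30.0 with NH4Cl, 7.56, 7.08 and 5.90 in glutamine alone, 26.1, 27.7 and 25.3 in glucose alone, and 34.1, 34.4 and 36.0 with neither. Glutamine alone stood far below the other 12 libraries, with a log2 change of -2.34 ± 0.089 against neither (edgeR adjusted p = 1.9e-68). The opposite-strand gene AP002807.1, which covers 16.28% of CHKA exon length, averaged 1.87 CPM with both, 1.53 with NH4Cl, 0.118 in glutamine alone, 1.43 in glucose alone and 0.365 with neither, and its part in the CHKA counts was not tested. PCYT2, which forms CDP-ethanolamine for phosphatidylethanolamine synthesis, had 74.5, 71.2 and 67.7 CPM with both, 55.5, 53.5 and 54.7 with NH4Cl, 41.1, 38.0 and 38.5 in glutamine alone, 31.6, 29.9 and 28.1 in glucose alone, and 37.5, 42.5 and 40.1 with neither. The NH4Cl libraries came second and those of glucose alone lowest, though with library totals the last overlapped with neither. Its log2 change was 1.25 ± 0.048 with glutamine and 0.87 ± 0.051 with NH4Cl. PNPLA3, a lipid droplet protein, had 6.31, 5.47 and 6.50 CPM with both, 2.89, 2.87 and 2.61 with NH4Cl, 2.38, 2.49 and 2.62 in glutamine alone, 1.81, 1.05 and 1.71 in glucose alone, and 1.88, 2.19 and 3.07 with neither. Libraries with both nutrients were the highest, and glutamine alone overlapped with NH4Cl and with neither. Its exons share 4.58% of their length with SAMM50 on the same strand, which averaged 38.1 CPM with both, 33.2 with NH4Cl, 41.6 in glutamine alone, 31.4 in glucose alone and 60.7 with neither, and its part in the PNPLA3 counts was not tested. The PNPLA3 log2 change with glutamine added to glucose was 1.99 ± 0.191, the largest of the step (edgeR adjusted p = 3.61e-22).

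GPAM and the 4 AGPAT genes had log2 changes of -0.12 to 0.40 with glutamine added to glucose. GPAM, which starts glycerolipid synthesis at the mitochondrion, had 20.2, 22.4 and 23.5 CPM with both nutrients, 17.9, 19.0 and 18.1 with NH4Cl, 22.4, 21.6 and 21.2 in glutamine alone, 20.6, 21.4 and 22.7 in glucose alone, and 14.3, 13.7 and 13.6 with neither. The libraries with neither nutrient stood below the other 12. Next came those of NH4Cl, at 17.9 to 19.0 CPM. They lay below the libraries of both nutrients, glutamine alone and glucose alone, which overlapped at 20.2 to 23.5 CPM. AGPAT5, an acyltransferase of phosphatidate synthesis, averaged 80.1 ± 3.34 CPM with both, 114 ± 0.635 with NH4Cl, 77.8 ± 2.51 in glutamine alone, 86.9 ± 3.26 in glucose alone and 73.0 ± 0.543 with neither (SD, n = 3 each). It rose with NH4Cl by 0.39 ± 0.033 and had a log2 change of -0.12 ± 0.034 with glutamine, so its NH4Cl libraries were the highest of all. AGPAT1, AGPAT2 and AGPAT3 had log2 changes of 0.11, 0.40 and 0.11 with glutamine, and those of AGPAT1 and AGPAT3 did not pass without glucose replicate 2 (0.09 and 0.11). That of AGPAT3 was also lost without glucose replicate 1 (0.10) or replicate 3 of both nutrients (0.11). DGAT1 and DGAT2, the enzymes that make triacylglycerol, had log2 changes of 0.13 ± 0.062, which did not pass, and -0.26 ± 0.070 with glutamine.

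Against the medium with neither nutrient, the set was split and depended on the scaling. Both nutrients were higher in 23 genes and lower in 9 (edgeR, adjusted p under 0.05), against 37% and 35.3% of all genes. Glucose alone was higher in 8 and lower in 23, against 39.9% and 37.9%, and glutamine alone was higher in 12 and lower in 19, against 37% and 35.8%. With library totals alone, both nutrients were higher in 30 and lower in 3, against 64.3% and 14.2% of all genes, glucose alone in 18 and 12, against 60.1% and 20.9%, and glutamine alone in 23 and 10, against 56.4% and 19.6%. Beyond 1.2-fold, both nutrients were higher in 19 and lower in 5, against 27.5% and 24.5% of all genes, glucose alone in 4 and 19, against 32.6% and 30%, and glutamine alone in 6 and 13, against 28.4% and 25.9%. Median log2 changes were 0.35 for both nutrients, -0.35 for glucose alone and -0.12 for glutamine alone, against 0.05, 0.05 and 0.02 for all genes. Without the 3 libraries richest in low-count genes the numbers were 23 and 9 for both, 8 and 23 for glucose alone, and 11 and 19 for glutamine alone. FASN was higher with both nutrients than with neither by 1.90 ± 0.019, and its log2 differences from neither were -1.62 ± 0.021 in glucose alone and -0.31 ± 0.020 in glutamine alone, the last of which turned to 0.04 with library totals. ACACB and LPIN2 were higher in each of the 3 media than with neither, ACACB by 1.47, 1.06 and 1.27 and LPIN2 by 0.99, 1.76 and 1.64 for both, glucose and glutamine.

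The response to glutamine was then compared between cells with and without glucose, as the interaction of glucose and glutamine. It was positive in 25 genes and negative in 6 (edgeR, adjusted p under 0.05), against 36.8% and 38% of all genes, with a median of 0.75 for the set and -0.03 for all genes. Beyond 1.2-fold, 23 were positive and 5 negative, against 30.7% and 32.5%. Positive values stood in 4 of 4 genes of acetyl-CoA supply, 4 of 5 of desaturation, 5 of 7 of elongation, 3 of 3 of activation and 7 of 12 of glycerolipid assembly, against 2 of 5 of acyl synthesis. With TMM scaling, FASN rose by 3.52 with glutamine in the presence of glucose and fell by 0.31 in its absence, a difference of 3.83 ± 0.028 on the log2 scale. SCD had 2.70 with glucose and -0.16 without, a difference of 2.86 ± 0.022, and ACLY had 1.87 with glucose and -0.69 without, a difference of 2.56 ± 0.037. The directions without glucose depend on the scaling. With library totals, FASN averaged 448 CPM in glutamine alone against 437 with neither, and SCD 1060 against 938. Both means were then higher, though the FASN libraries of these media met at 440 CPM. ACLY stayed lower, at 173 against 220 CPM. The negative values were led by LPIN2, at -0.77 with glucose and 1.64 without, a difference of -2.41 ± 0.059, and by MID1IP1, at -1.61 with glucose and 0.44 without, a difference of -2.06 ± 0.071. CHKA had log2 changes of -0.33 with glucose and -2.34 without, a difference of 2.01 ± 0.111. With library totals the number of negative values was 12, against 50.3% of all genes, whose median was then -0.37. Without the 3 libraries richest in low-count genes 25 were positive and 6 negative.

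**Figure D4:**
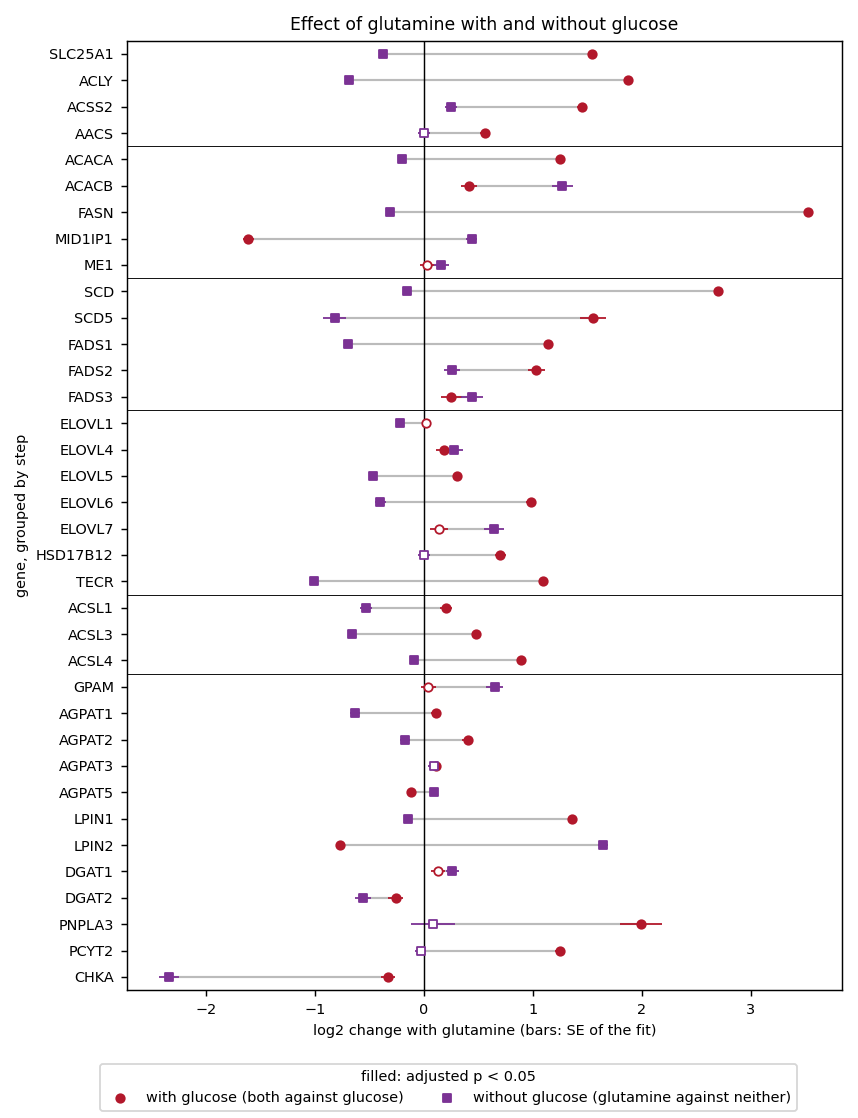
Log2 change of each of 36 genes (down, grouped by step) with glutamine, in the presence of glucose and in its absence (across), with bars for the SE of the fit from 3 libraries per medium and filled points for an adjusted p under 0.05. FASN stands at 3.52 with glucose and -0.31 without, and LPIN2 at -0.77 and 1.64. The values without glucose move with the scaling.

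Genes of neighbouring pathways, which are not among the 37, were counted in the same additions of glutamine and of NH4Cl to glucose, where 34.2% of all genes rose and 33.7% fell with glutamine, and 12.7% rose and 16.9% fell with NH4Cl. Of 14 tested regulators of lipid synthesis, 6 rose and 2 fell with glutamine: SREBF1, the gene of SREBP-1, averaged 370 ± 19.4 CPM with both nutrients and 152 ± 7.51 CPM in glucose alone, and INSIG1, its retention factor and a known target, averaged 323 ± 6.58 CPM with both and 30.9 ± 2.11 CPM in glucose alone (SD, n = 3 each). Their log2 changes were 1.29 ± 0.030 and 3.39, and MBTPS2, a protease that releases SREBP, fell by 0.69 on the log2 scale. With NH4Cl, 4 regulators rose and 2 fell, and SREBF1 averaged 309 ± 8.93 CPM and INSIG1 243 ± 7.38 CPM. Other genes of fatty acid synthesis and elongation rose in 8 and fell in 3 of 12 with glutamine, and rose in 2 and fell in 0 with NH4Cl. Among these ACOT7, an acyl-CoA thioesterase, rose by 0.86 with glutamine and by 0.12 with NH4Cl, and ACSS3, a mitochondrial acyl-CoA synthetase at 0.732 and 1.71 CPM with both and with glucose alone, fell by 1.22 with glutamine. Other genes of glycerolipid and phospholipid assembly rose in 20 and fell in 7 of 33 with glutamine, and rose in 8 and fell in 4 with NH4Cl. LPCAT1, which reacylates lysophosphatidylcholine, averaged 63.0 ± 2.98 CPM with both, 23.7 ± 0.695 with NH4Cl and 23.0 ± 0.372 in glucose alone, while CEPT1, which makes phosphatidylcholine and phosphatidylethanolamine, fell by 0.64 with glutamine. Lipid droplet and lipolysis genes rose in 3 and fell in 4 of 11 with glutamine, and rose in 2 and fell in 3 with NH4Cl. G0S2, an inhibitor of the lipase ATGL, rose by 1.34 with glutamine and fell by 0.62 with NH4Cl on the log2 scale, and LIPE, hormone-sensitive lipase, fell by 0.53 with glutamine. NADPH supply genes rose in 6 and fell in 3 of 9 with glutamine, and rose in 4 and fell in 1 with NH4Cl. PGD, of the pentose phosphate pathway, rose by 0.85 with glutamine, and ALDH1L2, a mitochondrial folate enzyme, fell by 2.79.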

How the data were processed

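The authors deposited unnormalized counts by Ensembl gene for 15 libraries. Per the submitters' processing notes, the tools were featureCounts, HISAT2 2.1.0 and Subread 1.5.1, and the build was GRCh38.p12. Strand use in counting and multimapper handling: not given in the sources used here. Gene names, positions and summed exon lengths came from GENCODE 29, and promoter sequence from RefSeq GRCh38.p14.

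After TMM scaling, edgeR 4.0.16 (R 4.3.3) gave quasi-likelihood F tests from a single robust fit of 15 libraries with a mean per medium and 10 residual degrees of freedom. The filterByExpr filter kept 16889 genes, over which p-values were adjusted by Benjamini-Hochberg, and genes were called at an adjusted p under 0.05, two-sided. The common biological coefficient of variation was 0.0221. Log2 changes used a prior count of 0.125, and their SE came from the fitted weights and the moderated dispersion. CPM is a count relative to the TMM-scaled total, and RPKM divides it by summed exon length. Floors cover counting error only, since reads are not independent molecules.

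Every member is accounted for, with values in every library for those with the largest changes in each step and for some whose direction differed between comparisons. Other members, AGPAT5 among them, are given as means by medium or as log2 changes. Of other genes, SREBF1 and, per list, the largest called rise and fall with glutamine added to glucose are named. The members and the lists of other genes were chosen with earlier results of these data known. The steps were tested on simulated data. Alternatives were DESeq2 1.42.0 size factors and its Wald test, no low-count filter, a filter of 1 CPM or more in 3 libraries, scaling by library totals, the compared media alone, a test against a 1.2-fold change, the replicate number as a block, and leaving out each library. A fit without 3 libraries was added after the data were seen. Replicate numbers did not pair libraries: residual correlations between equal numbers had a median of -0.000312 over 30 pairs, and in 6 of 15 libraries the closest match bore the same number. The chi-square per degree of freedom between libraries of a medium was 1.231 to 2.462, and 0 columns were identical.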

Additional observations from a re-analysis of the deposited data

Results flagged for a closer look

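In 31 of the 36 genes the log2 effect of glutamine differed between cells with and without glucose, by the interaction test of edgeR at an adjusted p under 0.05, in a test where 36.8% of all genes had a positive difference and 38% a negative one. The values below are the effect with glucose minus the effect without it. In acetyl-CoA supply they were 1.92 for SLC25A1, 2.56 for ACLY, 1.2 for ACSS2 and 0.56 for AACS. In acyl synthesis they were 1.45 for ACACA, 3.83 for FASN, -0.86 for ACACB and -2.06 for MID1IP1. In desaturation they were 2.86 for SCD, 2.38 for SCD5, 1.84 for FADS1 and 0.77 for FADS2. Elongation had 0.25 for ELOVL1, 0.78 for ELOVL5, 1.38 for ELOVL6, 0.70 for HSD17B12, 2.1 for TECR and -0.49 for ELOVL7. Activation had 0.73 for ACSL1, 1.14 for ACSL3 and 0.99 for ACSL4. Glycerolipid assembly had 0.74 for AGPAT1, 0.58 for AGPAT2, 1.5 for LPIN1, 0.30 for DGAT2, 1.91 for PNPLA3, 1.28 for PCYT2, 2.01 for CHKA, -0.61 for GPAM, -0.21 for AGPAT5 and -2.41 for LPIN2. With library totals alone the values of ELOVL1 and DGAT2 turned negative.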

How the results depend on the processing

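The comparisons between media with glucose, and glucose added to glutamine, kept their member counts within 1.5 times under every alternative except the test against a 1.2-fold change, and, for members lower with NH4Cl, no low-count filter (2 in place of 4, and 1834 in place of 2852 of all genes) and leaving out each library (2 to 4, the lowest without glucose replicate 2 or 3). Against a 1.2-fold change, members lower numbered 2 with glutamine added to glucose, 0 with NH4Cl added and 3 with glucose added to glutamine, and members higher 4 with NH4Cl in place of glutamine. All genes then numbered 3814 higher and 3603 lower, 228 and 216, 3317 and 3168, and 3045 and 3371 for these comparisons in that order. Against neither, the same test left 5 members lower with both nutrients, 4 higher with glucose alone and 6 higher with glutamine alone.

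With library totals alone, 10866 of all genes were higher and 2405 lower with both nutrients against neither, with 3 members lower. Glucose alone against neither then had 18 members higher and 12 lower, and 10145 and 3533 of all genes. Glutamine alone had 23 and 10 members, and 9531 and 3312 of all genes, and the interaction had 12 members lower. Log2 changes that turned positive with both nutrients were ME1 0.39, TECR 0.14, ACSL1 0.06, AGPAT1 0.41, AGPAT2 0.20, DGAT1 0.20 and DGAT2 0.13. With glucose alone they were ACSS2 0.27, AACS 0.24, ME1 0.36, FADS3 0.40, ELOVL6 0.07, HSD17B12 0.40, ACSL3 0.10, ACSL4 0.20, AGPAT1 0.30, DGAT1 0.07, DGAT2 0.38, PCYT2 0.02 and CHKA 0.04. With glutamine alone they were ACACA 0.15, FASN 0.04, SCD 0.18, ELOVL1 0.12, ACSL4 0.25, AGPAT2 0.17, LPIN1 0.20 and PCYT2 0.32. The interaction turned to -0.09 for ELOVL1, -0.32 for AGPAT3 and -0.04 for DGAT2. The alternative omits the TMM factors, which differ for the medium with neither nutrient.

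With the replicate number as a block, 26 members were higher and 5 lower with glutamine added to glucose, and 288 of 288 values for single members kept their direction and call. The numbers share no stated day or culture. Leaving out each library gave 23 to 26 members higher with glutamine added, 23 to 25 with NH4Cl added and 22 to 23 with glucose added to glutamine. The DESeq2 Wald test no longer called 11 of the 288. Depth limits ACSL5, at no more than 8 counts, and widens the errors of PNPLA3 and SCD5.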
